A study of Homo sapiens with 7 samples.

Results

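The AP-1 transcription factor genes, 10 in number, were followed in HEK-293 cells, an established human embryonic kidney line, after 48 h in acid medium or with the kinase inhibitor SRPIN340. The 10 genes were taken by name from the 19978 genes of the table: the FOS family (FOS, FOSB, FOSL1, FOSL2), the JUN family (JUN, JUNB, JUND) and the relatives ATF3, BATF3 and MAFF. All 10 passed the expression filter that kept 14863 genes. The control was DMEM of pH 7.4 with the vehicle DMSO (2 samples), the acidosis group was acidified DMEM of pH 6.6 with DMSO (3 samples), and the third group received 10 µM SRPIN340 in DMEM of pH 7.4 (2 samples), also with DMSO per the methods. SRPIN340 inhibits SRPK kinases, which phosphorylate SR-rich splicing factors. The sample labels name it so, whereas their treatment protocol gives the compound another number. The cells were grown with serum and antibiotics beforehand, and whether the media of the 48 h held them is not given in the sources used here. All samples came from the same cell line, and acidosis was sampled at a single pH and time. The methods describe the samples of a group as biological repeats, each sequenced in 3 replicates, and each repeat is a single sample here. The p-values rest on the spread between these samples, estimated over all groups together.

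AP-1 is a dimer of basic leucine zipper (bZIP) proteins. JUN proteins pair with each other or with FOS proteins, whereas FOS proteins need a JUN partner to bind DNA. The dimers recognize the TPA response element (TRE) or the cAMP response element (CRE). FOS, JUN, FOSB, JUNB and ATF3 are textbook immediate-early genes, which are transcribed within minutes of a stimulus without new protein synthesis, and their transcripts are short-lived. MAP kinase cascades raise AP-1 activity through the factors that occupy these promoters and through phosphorylation of the AP-1 proteins.

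Levels are given as CPM, a gene's count divided by a library total scaled with TMM (trimmed mean of M values) and put on a common scale. Library totals lay between 13615816 and 24110460 counts and were lowest in acidosis replicates 2 and 3. The 100 most abundant genes held 24.1% to 24.8% of all counts in acidosis, against 15.2% to 15.4% at pH 7.4. Fold changes in acidosis are therefore relative to the typical gene. Their median log2 fold change over the 14863 genes was -0.052, or -0.63 if libraries were scaled by total count alone. The cell line's markers NEFL, NEFM, PAX2 and EYA1 were detected in each group, with a summed level of 135 to 169 CPM at pH 7.4 and 236 to 254 CPM at pH 6.6. PAX2 was called lower and NEFM higher in acidosis. Of 6 markers of other cell types, PTPRC, ALB, PECAM1, KRT5 and DES did not exceed 0.987 CPM in any sample. The fibroblast collagen gene COL1A1 had a mean of 30.9 CPM in control and 62.3 CPM in acidosis (log2 fold change 1.02), and its part in the results was not tested. In bulk samples, a change in the number of cells that express a gene and a change in RNA per cell cannot be told apart.

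The promoters of the members that moved together are shown first, since AP-1 and CREB/ATF factors are known to act on them. Windows of 250 bases before to 50 after a RefSeq start (GRCh38.p14) were at hand for 8 members, and FOSL1 and BATF3 had none. They were searched on both strands for the TRE (TGACTCA), the CRE (TGACGTCA), a TRE-like sequence (TGACATCA) and the CRE core (TGACGT), which is contained in the CRE. The TRE-like sequence was in the windows of JUN and ATF3 and in 2.61% of all 35116 windows. The CRE was found for JUND and MAFF, and in 1.85% of all windows. FOS, FOSB, FOSL2, JUND and MAFF held the CRE core, which 7.98% of all windows held. The TRE was found for FOSL2 only, at position 5 after the start, and in 4.95% of all windows. The TATA box (TATAAA, searched on the plus strand of the gene) lay at -33 in FOS, -31 in JUNB and -30 in FOSB, and 7.33% of all windows held it. It was also at -230 in a second ATF3 window. The GC box (GGGCGG) was found for 7 of the 8 members, all except JUNB, and in 45% of all windows. The CArG box bound by SRF was found for 0 of the 8 and in 1.29% of all windows. A match is a string of letters and not a measured binding site, and its absence says only that the letters are not in this window.

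The stretches that hold the TRE-like sequence or the CRE core are printed 5′ to 3′ on the strand of the gene. Capitals mark the TRE-like sequence in JUN and ATF3, the CRE core in FOS, FOSB and FOSL2, and the CRE, which holds the CRE core on both strands, in JUND and MAFF. The second run of capitals in JUND is a separate CRE core on the opposite strand. The JUN stretch is chr1:58784048-58784257 on the minus strand, and that of ATF3 is chr1:212565197-212565406 on the plus strand. FOS is at chr14:75278618-75278827 on the plus strand, FOSB at chr19:45467786-45467995 on the plus strand, FOSL2 at chr2:28392648-28392857 on the plus strand, JUND at chr19:18281623-18281832 on the minus strand and MAFF at chr22:38201784-38201993 on the plus strand. The ATF3, FOSL2 and MAFF stretches precede RefSeq starts that lie inside the annotated genes. ATF3 has another window without the TRE-like sequence, and MAFF has another without the CRE.
JUN: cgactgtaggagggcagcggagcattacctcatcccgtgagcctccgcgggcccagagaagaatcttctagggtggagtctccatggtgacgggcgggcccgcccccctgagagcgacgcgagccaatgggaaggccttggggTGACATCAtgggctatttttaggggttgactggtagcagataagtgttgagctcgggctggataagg
ATF3: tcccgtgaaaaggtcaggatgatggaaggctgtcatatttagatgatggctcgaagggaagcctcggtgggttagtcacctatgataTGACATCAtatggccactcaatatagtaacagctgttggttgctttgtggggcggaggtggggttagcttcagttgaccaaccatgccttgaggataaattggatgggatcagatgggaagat
FOS: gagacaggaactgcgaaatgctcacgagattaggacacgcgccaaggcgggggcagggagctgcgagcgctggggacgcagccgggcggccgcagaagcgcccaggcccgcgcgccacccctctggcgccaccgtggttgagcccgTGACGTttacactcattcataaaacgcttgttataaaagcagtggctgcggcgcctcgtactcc
FOSB: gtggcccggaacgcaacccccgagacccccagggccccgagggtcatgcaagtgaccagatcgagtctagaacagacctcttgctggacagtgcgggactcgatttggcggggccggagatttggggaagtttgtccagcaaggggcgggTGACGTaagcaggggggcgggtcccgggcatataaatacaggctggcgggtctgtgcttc
FOSL2: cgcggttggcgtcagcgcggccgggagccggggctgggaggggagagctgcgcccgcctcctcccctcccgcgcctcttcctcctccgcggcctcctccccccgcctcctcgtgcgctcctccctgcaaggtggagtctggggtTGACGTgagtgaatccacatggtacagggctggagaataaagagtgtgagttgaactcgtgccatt
JUND: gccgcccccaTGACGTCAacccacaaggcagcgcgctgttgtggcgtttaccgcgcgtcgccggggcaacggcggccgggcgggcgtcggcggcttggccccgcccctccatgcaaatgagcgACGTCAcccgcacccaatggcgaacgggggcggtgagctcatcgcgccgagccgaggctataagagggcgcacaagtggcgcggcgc
MAFF: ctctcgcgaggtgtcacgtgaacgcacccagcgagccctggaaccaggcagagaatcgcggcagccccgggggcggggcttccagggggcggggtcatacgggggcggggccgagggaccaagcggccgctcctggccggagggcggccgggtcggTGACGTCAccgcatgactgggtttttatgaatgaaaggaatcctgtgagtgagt

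In acidosis, 9 of the 10 AP-1 genes were higher than in control and BATF3 was lower, and all 10 passed the test. The 9 increases lay between 10.0-fold (FOSL2) and 141-fold (FOS). A call required more than 1 unit of log2 fold change in either direction and a Benjamini-Hochberg adjusted p under 0.05, over all genes tested, in the quasi-likelihood test of edgeR. Of all genes, 14.4% were called higher and 19.1% lower by the same rule. The members were chosen with earlier results of these data known, so their comparison with all genes is a description. The median log2 fold change of the 10 members was 5.48, against -0.052 over all genes tested. In each of the 9 increases, every acidosis sample lay above every control and SRPIN340 sample. Against control alone, an easier criterion, the acidosis group separated upward for 37% of all genes. The share above both other groups at once was not computed.

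**Figure D1:**
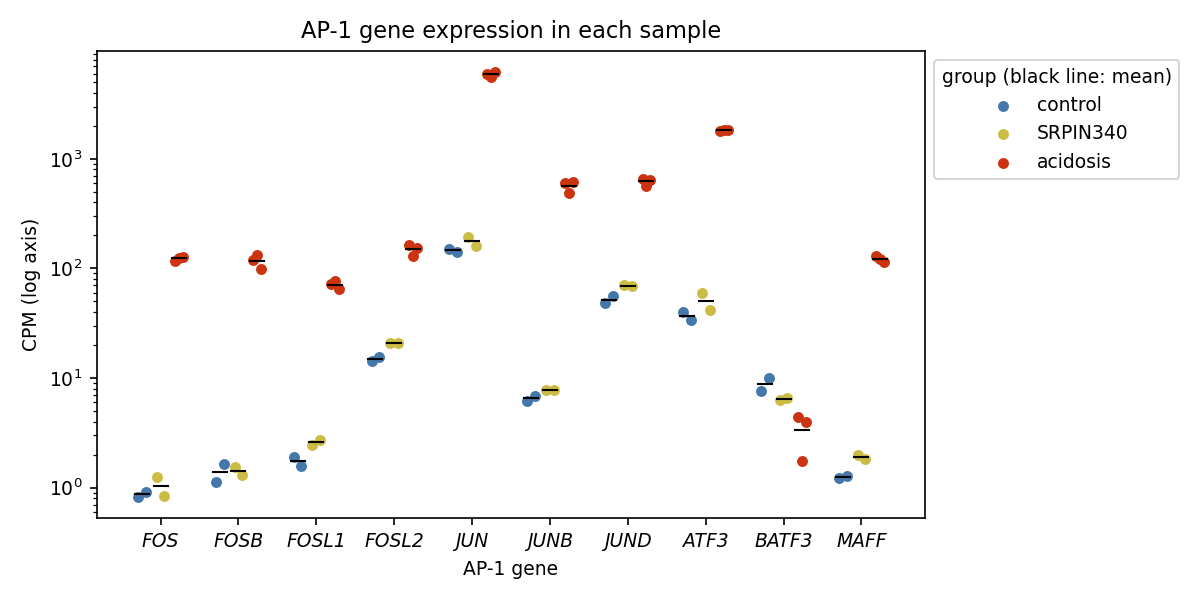
Level of each of the 10 AP-1 genes in each of the 7 samples (CPM, log axis), grouped into control, SRPIN340 and acidosis, with 1 point per sample. Acidosis points lie far above the others for 9 genes (for JUN, 5554 to 6196 CPM against 142.5 to 149.5 CPM in control) and below them for BATF3.

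The FOS family passed from low levels to at least 64.5 CPM in every acidosis sample. FOS (ENSG00000170345.10, chr14:75278826-75282230, plus strand, 4 exons) encodes c-Fos, the founding partner of c-Jun. Its level was 0.829 and 0.913 CPM in control, 1.25 and 0.835 CPM with SRPIN340, and 117.0, 125 and 128 CPM in acidosis. The control and SRPIN340 samples overlapped, whereas the acidosis samples stood apart from both and differed from each other by little. Behind the control values were 23 and 26 counts, so the fold of FOS rests on few control reads. Its log2 fold change in acidosis was 7.14 (SE 0.166, adjusted p = 2.56e-09), the largest of the 10 and place 19 among the 14863 genes tested.

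FOSB (ENSG00000125740.14, chr19:45467995-45475179, plus strand, 4 exons) encodes another FOS protein with a transactivation domain. Its level was 1.12 and 1.65 CPM in control, 1.55 and 1.29 CPM with SRPIN340, and 119, 133 and 98.0 CPM in acidosis. The acidosis samples spread more than those of FOS, with an SD of 17.4 against 5.71 CPM, and did not approach the other groups. The log2 fold change was 6.39 (SE 0.212, adjusted p = 1.72e-08). FOSL1 (ENSG00000175592.9, chr11:65892049-65900573, minus strand, 4 exons) encodes FRA-1, which lacks the transactivation domain of c-Fos. It was at 1.91 and 1.58 CPM in control, 2.47 and 2.73 CPM with SRPIN340, and 71.6, 76.9 and 64.5 CPM in acidosis. All 3 groups were separate, with acidosis far above the others and a log2 fold change of 5.34 against control (SE 0.163, adjusted p = 1.07e-08).

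FOSL2 (ENSG00000075426.12, chr2:28392448-28417317, plus strand, 4 exons) encodes FRA-2 and was the FOS family gene with the highest control level per length. Its level was 14.2 and 15.5 CPM in control, 20.7 and 20.9 CPM with SRPIN340, and 162.5, 130.3 and 154 CPM in acidosis. Again the 3 groups were separate. Its log2 fold change in acidosis, 3.33 (SE 0.122, adjusted p = 2.75e-08), was the smallest of the 9 increases.

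All 3 JUN family genes, which have a single exon each, rose. JUN (ENSG00000177606.8, chr1:58776845-58784048, minus strand) encodes c-Jun, the substrate that gave the JNK kinases their name. It was at 149.5 and 142.5 CPM in control, 193 and 160.1 CPM with SRPIN340, and 5890.1, 5554 and 6196 CPM in acidosis. The acidosis samples lay within 1 range well clear of the rest, and the log2 fold change was 5.33 (SE 0.102, adjusted p = 7.28e-10). By CPM per kb of the canonical transcript, JUN moved from place 1340 in control to place 46 in acidosis among 14862 genes.

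JUNB (ENSG00000171223.6, chr19:12791486-12793315, plus strand) encodes a JUN protein that can counteract c-Jun at some promoters. Its level was 6.20 and 6.92 CPM in control, 7.81 and 7.78 CPM with SRPIN340, and 598, 487 and 614 CPM in acidosis. The lowest acidosis sample was replicate 2, still far above the rest. The log2 fold change was 6.43 (SE 0.140, adjusted p = 1.50e-09). Its exons share 259 bases with those of HOOK2 on the opposite strand, and whether the quantification used strand is not given in the sources used here, so a part of its counts is uncertain.

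JUND (ENSG00000130522.6, chr19:18279694-18281622, minus strand) encodes the JUN protein known for steady expression in resting cells. It was at 47.9 and 55.9 CPM in control, 70.6 and 68.8 CPM with SRPIN340, and 659, 568 and 646 CPM in acidosis. The groups did not overlap. The log2 fold change in acidosis was 3.59 (SE 0.101, adjusted p = 8.31e-09), the smallest in the JUN family.

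ATF3 and BATF3 lie on chromosome 1 with 65639 bases between them, and they moved in opposite directions. ATF3 (ENSG00000162772.17, chr1:212565334-212620777, plus strand, 4 exons) encodes a stress-induced bZIP factor that also pairs with JUN proteins. It was at 40.2 and 33.7 CPM in control, 59.5 and 41.4 CPM with SRPIN340, and 1793, 1818 and 1849.7 CPM in acidosis. The coefficient of variation over the acidosis samples was 1.56%, the lowest of the 10 genes, and the log2 fold change was 5.62 (SE 0.164, adjusted p = 8.67e-09).

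BATF3 (ENSG00000123685.9, chr1:212686417-212699840, minus strand, 3 exons) encodes a small bZIP partner of JUN best known from dendritic cells. Its level was 7.64 and 10.1 CPM in control, 6.27 and 6.53 CPM with SRPIN340, and 4.39, 1.74 and 3.96 CPM in acidosis. The 3 groups were separate in this order, but the acidosis values rested on 74, 19 and 46 counts and had a coefficient of variation of 42.2%. The log2 fold change was -1.37 (SE 0.314, adjusted p = 0.0034), a level 2.58-fold lower than control. Without acidosis replicate 2, which had the lowest value, it was -1.08, and without control replicate 2 it was -1.18 (adjusted p = 0.0364).

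MAFF (ENSG00000185022.12, chr22:38200767-38216507, plus strand, 3 exons) encodes a small MAF protein, a bZIP factor without a transactivation domain. It was at 1.22 and 1.26 CPM in control, 1.99 and 1.82 CPM with SRPIN340, and 129, 123 and 115 CPM in acidosis. The 3 groups were separate, and the acidosis samples formed a narrow range. Its log2 fold change was 6.61 (SE 0.136, adjusted p = 1.10e-09), second to FOS. MAFF shares 326 exonic bases with PLA2G6 on the opposite strand, with the same uncertainty as for JUNB.

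The order of the log2 fold changes in acidosis was FOS, MAFF, JUNB, FOSB, ATF3, FOSL1, JUN, JUND, FOSL2 and BATF3. Several neighbours in this order did not differ beyond their error. MAFF and JUNB were 0.18 apart with a combined SE of 0.195, JUNB and FOSB 0.044 apart (combined SE 0.254), and FOSL1 and JUN 0.012 apart (combined SE 0.192). ATF3 and FOSL1 (gap 0.28, combined SE 0.231) and JUND and FOSL2 (gap 0.26, combined SE 0.158) were also within 2 combined SE of each other. The gap of 1.74 between JUN and JUND (combined SE 0.144) was the widest among the 9 increases. These gaps are descriptions without a test of their own.

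**Figure D2:**
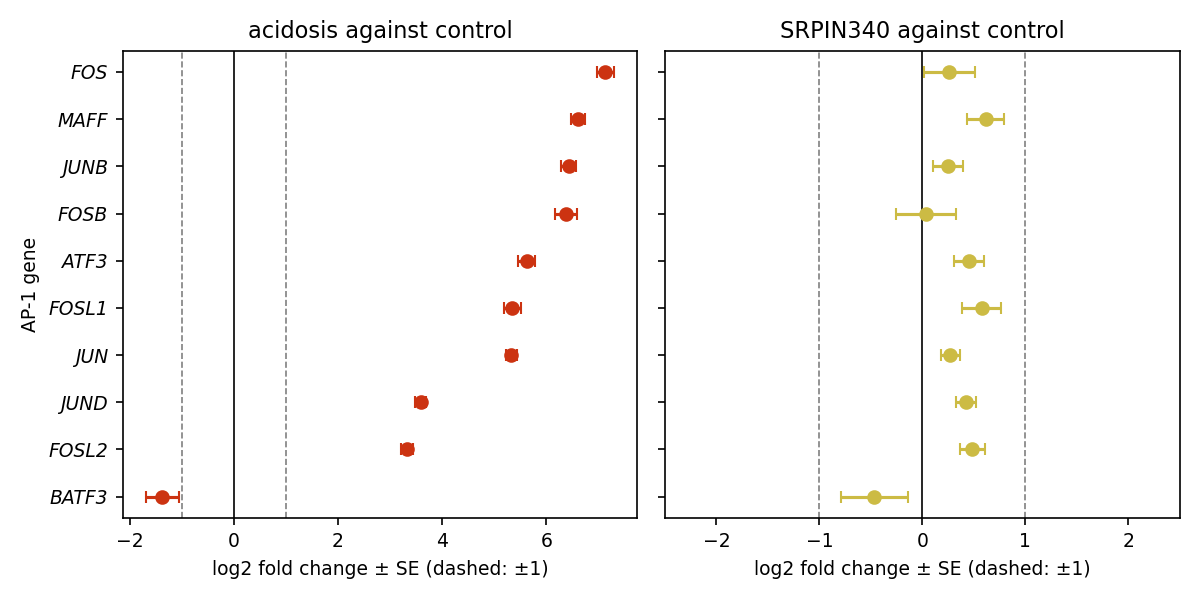
Log2 fold change against control of the 10 AP-1 genes in acidosis and with SRPIN340, with bars of 1 SE from edgeR. Acidosis values run from 7.14 (FOS) down to -1.37 (BATF3), and SRPIN340 values stay between -0.47 (BATF3) and 0.61 (MAFF).

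Compared per kb of canonical transcript, which allows levels of different genes to be set side by side, the order of the members also shifted. In control the mean level was highest for JUN (44.8 CPM per kb), JUND (26.9 CPM per kb) and ATF3 (19.1 CPM per kb), and lowest for MAFF (0.524 CPM per kb), FOS (0.414 CPM per kb) and FOSB (0.366 CPM per kb). In acidosis JUN (1805 CPM per kb) was followed by ATF3 (938 CPM per kb), JUND (324 CPM per kb) and JUNB (309 CPM per kb). BATF3 went from the fourth place among the 10 to the last, at 4.03 CPM per kb. The summed FOS family level was 4.02 ± 0.123 (SD, n = 2) CPM per kb in control, 5.50 ± 0.0577 (SD, n = 2) with SRPIN340 and 153 ± 5.75 (SD, n = 3) in acidosis. The summed JUN family level was 75.3 ± 1.68 (SD, n = 2), 94.6 ± 7.74 (SD, n = 2) and 2438 ± 157 (SD, n = 3) CPM per kb in the same groups, so JUN transcripts exceeded FOS transcripts per length in each group.

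Within each family the composition changed in acidosis. These shares of the family's counts per length do not depend on scaling between libraries, and they were not tested. FOSL2 held 53.9% and 56.2% of the FOS family in control, 55.7% and 57.1% with SRPIN340, and 15.8%, 12.2% and 15.6% in acidosis. FOS held 10.0% and 10.6% in control, 10.8% and 7.27% with SRPIN340, and 36.3%, 37.3% and 41.2% in acidosis. FOSL2 led the FOS family in every sample at pH 7.4 under each choice of length. The lead in acidosis depended on that choice: FOS led in all 3 samples with the canonical length, FOSL1 (32.0% and 33.4%) passed FOS (30.9% and 32.1%) in replicates 1 and 2 with the length of all exons joined, and FOS led in no sample without division by length. The FOSB share also rose, from means of 9.09% in control and 6.83% with SRPIN340 to 20.1% in acidosis, while FOSL1 held means of 25.6%, 27.8% and 27.2% in control, SRPIN340 and acidosis. The FOSL1 share went from 26.3% in control to 31.8% in acidosis with all exons joined, and from 9.30% to 15.4% without division by length.

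In the JUN family, JUN led in every sample. Its share was 61.9% and 57.2% in control, 59.2% and 55.2% with SRPIN340, and 73.0%, 75.3% and 73.9% in acidosis. JUND held 33.5% and 37.9% in control, 36.6% and 40.1% with SRPIN340, and 13.8%, 13% and 13.02% in acidosis. JUNB held a mean share of 4.75% in control and 4.52% with SRPIN340, against 12.7% in acidosis. For these 3 genes the acidosis samples did not overlap with the others.

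**Figure D3:**
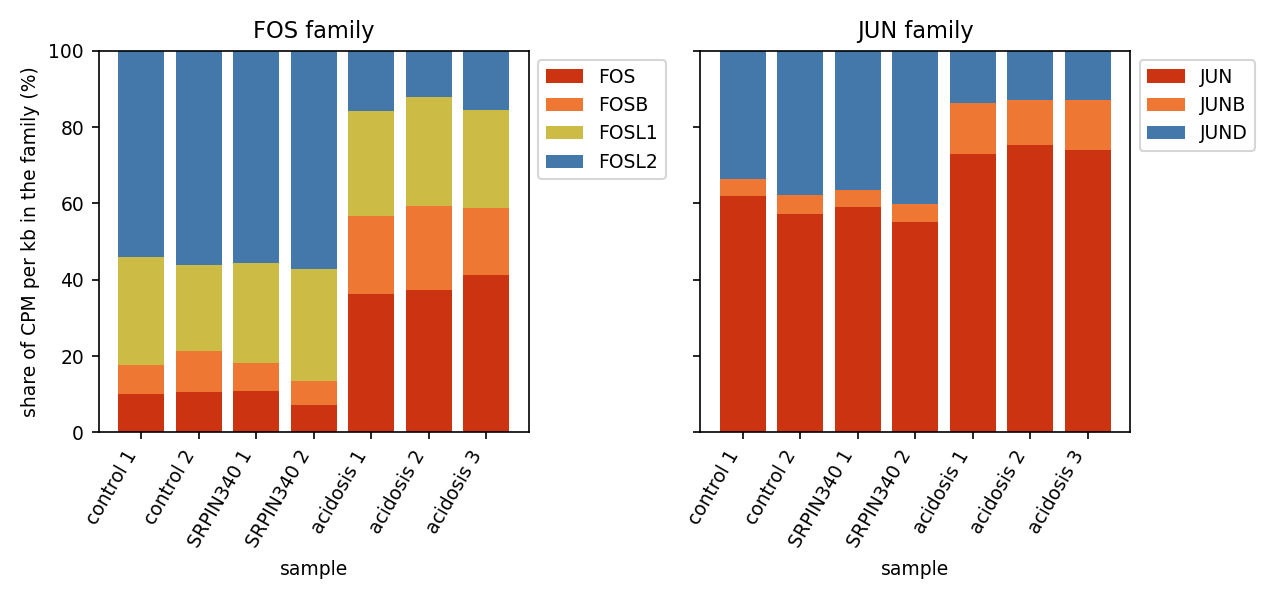
Share of each gene in the summed counts per kb of the FOS family and of the JUN family, in percent, 1 stacked bar per sample. The FOSL2 part shrinks from a mean of 55.1% in control to 14.5% in acidosis and the JUND part from 35.7% to 13.3%, while with SRPIN340 the means are 56.4% for FOSL2 and 38.3% for JUND.

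With SRPIN340, 0 of the 10 genes were called by edgeR, by DESeq2 or under any other alternative run, although 6 of the 10 had an unadjusted p under 0.05. All 6 (FOSL1, FOSL2, JUN, JUND, ATF3 and MAFF) were fitted higher than in control, by 1.53-fold or less. Of all genes tested, 0.128% were called higher and 0.195% lower with SRPIN340, and 8.15% were higher at an unadjusted p under 0.05. The median log2 fold change of the members was 0.35, against 0.0024 over all genes. The 2 SRPIN340 samples lay above both controls for 7 genes and below them for BATF3, and they overlapped with control for FOS and FOSB. Such upward separation was seen for 27.3% of all genes.

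JUND came nearest to a call, at a log2 fold change of 0.43 (SE 0.0983, adjusted p = 0.0595), and its adjusted p fell below 0.05 with DESeq2, with total-count scaling, without the filter and without acidosis replicate 2. FOSL2 followed at 0.49 (SE 0.124, adjusted p = 0.0799). The largest fitted increases were those of MAFF (0.61, SE 0.177, adjusted p = 0.114) and FOSL1 (0.58, SE 0.189, adjusted p = 0.153). For JUN and ATF3 the log2 fold changes were 0.27 (SE 0.0888, adjusted p = 0.151) and 0.45 (SE 0.147, adjusted p = 0.151). FOS (0.26, SE 0.247, adjusted p = 0.673) and FOSB (0.036, SE 0.288, adjusted p = 0.972) had the widest errors among the 9. JUNB was at 0.25 (SE 0.149, adjusted p = 0.436) and BATF3 at -0.47 (SE 0.326, adjusted p = 0.513).

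Acidosis was also tested directly against SRPIN340, in the same fit. The control samples enter it through the expression filter, the scaling and the estimate of the spread. The 9 genes that rose against control were called higher here too, whereas BATF3 missed the fold limit (log2 fold change -0.90, SE 0.319, adjusted p = 0.0298). Over all genes, 14.9% were called higher and 19.7% lower. The log2 fold changes were 6.87 for FOS, 6.35 for FOSB, 6.18 for JUNB and 6.00 for MAFF, and the members' median was 5.12 against -0.051 over all genes. JUND (3.16) and FOSL2 (2.84) were again at the lower end. Every acidosis sample lay outside the range of the SRPIN340 samples for all 10 genes. The share of all genes separated in this way was not computed for this comparison, so this count does not set the members apart. In acidosis against control, upward separation alone was seen for 37% of all genes. The comparisons against control share the 2 control samples and this one shares the acidosis and SRPIN340 samples with them, so they are not independent.

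The other genes of the pathway changed in part. The gene lists that follow were chosen with earlier results of these data known, so their counts and medians beside all genes are descriptions. Among 17 relatives and dimer partners of the members, 16 were tested, and BATF was at 0 in every sample. In acidosis, 7 were called higher, among them CREB5, MAFK and MAFG, and 1 lower (BATF2), against 14.4% and 19.1% of all genes. The list's median was 0.73, against -0.052 over all genes. With SRPIN340, 0 were called by edgeR or DESeq2, and 2 had an unadjusted p under 0.05, of which 1 was fitted higher. Over all genes, 8.15% were higher at that limit. CREB5, a CRE-binding bZIP factor, was at 30.5 ± 6.89 (SD, n = 2) CPM in control and 519 ± 14.0 (SD, n = 3) CPM in acidosis (log2 fold change 4.09, SE 0.138, adjusted p = 1.82e-08). The small MAF genes MAFK (3.93, SE 0.121, adjusted p = 1.12e-08) and MAFG (3.55, SE 0.0918, adjusted p = 5.33e-09) rose with MAFF. BATF2 was at 1.18 ± 0.374 (SD, n = 2) CPM in control and at 0 in all 3 acidosis samples, at least 4.96-fold lower against a floor of 3 counts per library. At that bound the list's median stayed the same. With total-count scaling, 5 relatives were called higher and 2 lower.

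For the MAP kinase genes upstream of AP-1, the calls were not far from the shares over all genes (14.4% higher and 19.1% lower). Of 25 tested, 2 were higher in acidosis (MAP2K7 and MAP2K3) and 4 lower (MAP3K5, MAP3K11, MAP3K7 and MAP2K5), with a median log2 fold change of -0.097. MAP3K5, which encodes the stress kinase ASK1, fell from 39.9 ± 6.09 (SD, n = 2) to 7.49 ± 0.819 (SD, n = 3) CPM (log2 fold change -2.40, SE 0.143, adjusted p = 4.53e-07). MAP2K7, an activator of JNK, rose by 1.62 on the log2 scale (SE 0.157, adjusted p = 1.13e-05). MAP3K11 and MAP3K7 fell by 1.54 (SE 0.211, adjusted p = 0.000125) and 1.42 (SE 0.0858, adjusted p = 4.94e-07). With total count only, which shifts all genes downward alike, 1 gene was called higher and 8 lower. With SRPIN340, edgeR and DESeq2 called 0, and 1 gene, fitted lower, had an unadjusted p under 0.05. At that limit 8.15% of all genes were higher.

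Factors that act on the FOS and JUN promoters were called in 1 direction in acidosis. Of 13 tested, 6 were called higher, among them SRF, SP1, ATF1 and ELK1, and 0 lower, against 14.4% and 19.1% of all genes. The list's median was 0.82, against -0.052 over all genes. SRF, the serum response factor, rose from 57.8 ± 1.73 (SD, n = 2) to 233 ± 27.3 (SD, n = 3) CPM (log2 fold change 2.01, SE 0.106, adjusted p = 2.22e-07). SP1, which binds GC boxes, was higher by 1.76 (SE 0.0732, adjusted p = 5.36e-08), ATF1 by 1.61 (SE 0.100, adjusted p = 6.02e-07) and the SRF partner ELK1 by 1.25 (SE 0.0830, adjusted p = 8.93e-07). With total-count scaling, 3 were called higher and 1 lower. With SRPIN340, 0 of the 13 were called by either tool. An unadjusted p under 0.05 was seen for 4, of which 3 were fitted higher, against 8.15% of all genes higher at that limit.

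Regulators of AP-1 protein turnover and activity were all fitted lower in acidosis, by TMM and by total-count scaling. By TMM, 7165 of all 14863 genes were fitted higher. Total-count scaling shifts all genes downward alike, to a median of -0.63, so the same direction there is no separate result. Of 7 tested, 2 were called, DET1 and ITCH, which encode an adaptor and a ligase of the ubiquitin system that act on JUN proteins, and the median was -0.85. Over all genes 19.1% were called lower, so the count does not set the list apart. DET1 fell from 12.9 ± 1.79 (SD, n = 2) to 3.88 ± 0.827 (SD, n = 3) CPM (log2 fold change -1.72, SE 0.203, adjusted p = 4.47e-05). ITCH fell by 1.24 on the log2 scale (SE 0.197, adjusted p = 0.000331). With SRPIN340, 0 of the 7 were called by either tool, and 1, fitted lower, had an unadjusted p under 0.05. At that limit 8.15% of all genes were higher.

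Of 35 genes known as AP-1 targets in other cells, 27 were expressed well enough to be tested. In acidosis 14 were called higher and 1, LOX, lower, against 14.4% and 19.1% of all genes. This list too was chosen with earlier results of these data known. The median log2 fold change was 1.15, against -0.052 over all genes. The untested genes were MMP1, MMP3, MMP9, IL6, FASLG, IVL, DCN and SPRR1B. CXCL8, which encodes the chemokine interleukin-8, was at 0.612 and 0.632 CPM in control, 1.81 and 1.48 CPM with SRPIN340, and 230.5, 219.5 and 254 CPM in acidosis. Its groups were separate, and the log2 fold change in acidosis was 8.54 (SE 0.153, adjusted p = 4.31e-10). PTGS2, the inducible cyclooxygenase, rose from 7.10 ± 0.356 (SD, n = 2) to 163 ± 2.12 (SD, n = 3) CPM (4.52, SE 0.103, adjusted p = 2.18e-09). The epidermal growth factor receptor ligand AREG rose by 3.62 (SE 0.254, adjusted p = 1.27e-06) and the matrix metalloproteinase MMP10 by 3.04 (SE 0.528, adjusted p = 0.000608), from 0.339 CPM in control. LOX, a collagen cross-linking enzyme, was at 18.1 ± 2.49 (SD, n = 2) CPM in control and 5.67 ± 2.36 (SD, n = 3) CPM in acidosis. With total-count scaling, 10 targets were called higher and 2 lower.

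With SRPIN340, 2 targets were called higher and 0 lower, against 0.128% and 0.195% of all genes. Of the 27 tested, 12 had an unadjusted p under 0.05, and 11 of these were fitted higher. Over all genes, 8.15% were higher at that limit. CXCL8 was at 1.64 ± 0.230 (SD, n = 2) CPM (log2 fold change 1.39, SE 0.232, adjusted p = 0.0227). PLAU, the urokinase gene, was at 2.41 and 2.91 CPM in control, 6.49 and 6.04 CPM with SRPIN340 and 15.6, 11.8 and 11.4 CPM in acidosis, with log2 fold changes of 1.23 (SE 0.227, adjusted p = 0.0323) with SRPIN340 and 2.28 (SE 0.218, adjusted p = 1.03e-05) in acidosis. Neither SRPIN340 call held when any of the 4 control and SRPIN340 samples was left out, each in turn, with adjusted p between 0.0966 and 0.218. These fits leave 1 sample in an arm, which is assumed to vary like the other groups, and the log2 fold changes stayed between 1.24 and 1.53 for CXCL8 and between 1.10 and 1.37 for PLAU. The CXCL8 call was also lost with only the groups compared in the fit (adjusted p = 0.0943) and as a ratio to TBP (adjusted p = 0.0796), and both were lost with a replicate block (adjusted p = 0.0582 for CXCL8 and 0.0898 for PLAU).

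**Figure D4:**
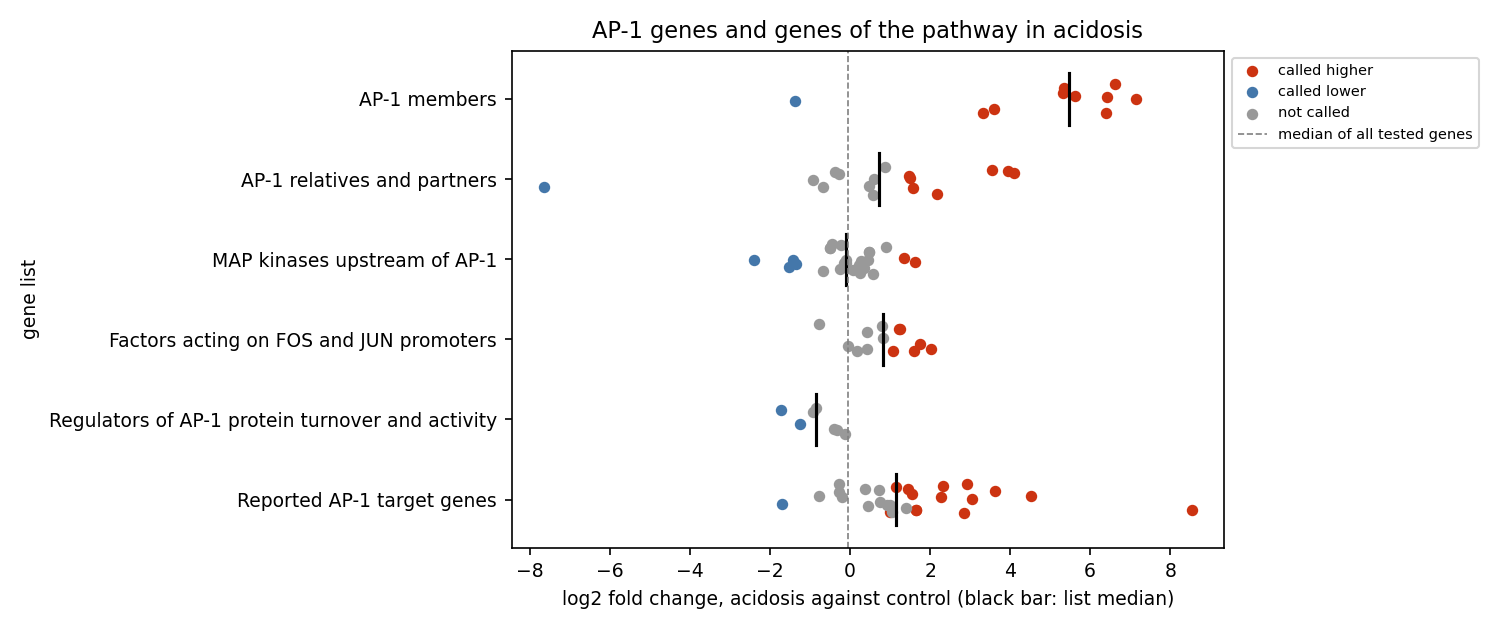
Log2 fold change in acidosis against control of each tested gene in the 5 pathway lists and the 10 members, 1 point per gene, with the list median as a black bar, called genes in red (higher) or blue (lower) and the others in grey. The members' median is 5.48, that of the AP-1 targets 1.15 and that of the turnover regulators -0.85, and the BATF2 point rests on 0 counts in acidosis, so its position is no bound.

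The genes whose profile over the 7 samples was most like that of FOS or JUN were sought among the 10119 genes that averaged 10 CPM or more. Likeness was the root-mean-square distance between log2(CPM + 0.5) values centred on each gene's mean, a measure dominated by the step between acidosis and the other samples. Nearest to FOS were GADD45B (0.134), a stress gene that curbs JNK signalling, ARL14 (0.167), the histone gene H2BC21 (0.235), DUSP1 (0.329), a phosphatase of MAP kinases, and CCN2 (0.334). Among the members, JUNB (0.187), FOSB (0.294) and MAFF (0.299) were as near. GADD45B had mean levels of 12.5 CPM in control, 12.8 CPM with SRPIN340 and 1267 CPM in acidosis. Nearest to JUN were the orphan nuclear receptor gene NR4A1 (0.0996), KLF6 (0.118), PPP1R15A (0.171), whose product directs dephosphorylation of eIF2α, GPR3 (0.171) and TCIM (0.220), and among the members ATF3 (0.148) and FOSL1 (0.276). ARL14, GPR3 and TCIM were under 1 CPM in control and passed the minimum through acidosis alone. H2BC21, CCN2 and NR4A1 were under 10 CPM both in control and with SRPIN340, so they too passed through acidosis. The added 0.5 CPM draws in the profiles of genes under 1 CPM in control, among them FOS itself (mean 0.871 CPM). Whether another added value would reorder the neighbours was not tested. The fitted log2 fold changes in acidosis were 6.26 for GPR3 and 6.37 for TCIM, above the 5.33 of JUN. NR4A1 had means of 4.92, 6.91 and 215 CPM in control, SRPIN340 and acidosis.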

How the data were processed

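Poly(A) RNA of 7 HEK-293 samples was captured and sequenced in paired-end mode. According to the paper's methods and the submitters' processing notes, the authors trimmed reads (Trimmomatic 0.39, Trim Galore 0.6.6), quantified them with Salmon 1.5.1 on a Gencode GRCh38.p13 transcriptome and summed transcripts to genes with tximport, whose count option is not given in the sources used here. What the authors deposited is a table of estimated counts, with no normalization between samples. Of 19978 genes, 19977 matched GENCODE release 44 by identifier, from which positions and canonical transcript lengths were taken, and 1951 were at 0 in every sample.

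These were rounded, and edgeR 4.0.16 was run in R 4.3.3 (filterByExpr, TMM, quasi-likelihood test, Benjamini-Hochberg adjustment). All 7 samples entered 1 fit, and 14863 genes were tested. The limits were an adjusted p of 0.05 and an absolute log2 fold change of 1. The SE was taken from the test statistic. DESeq2 1.42.0, other scalings, no filter, only the groups compared, a replicate block, no fold limit, the ratio to TBP and leaving out each replicate were alternatives. The script was tested on simulated data. Levels between genes were compared as CPM per kb. Promoter windows are from RefSeq (GRCh38.p14).

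The members and gene lists were chosen with earlier results of these data known. The text names all 10 members, up to 4 called genes per list with the largest change in acidosis, every list gene called with SRPIN340, and the 5 nearest profiles to FOS and to JUN. MAP2K3, MAP2K5, LOX and the untested list genes were named in addition, after their values were seen. Some genes of these lists are not reported here by name. Figures were drawn with matplotlib 3.10.9.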

Additional observations from a re-analysis of the deposited data

How the results depend on the processing

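All 10 members were called in acidosis against control under every alternative, including the replicate block (10 calls), and 0 of 10 with SRPIN340. Against SRPIN340, 9 or 10 were called, and BATF3 was the one that changed sides. BATF3 against control ranged from -1.95 (total count only) to -1.01 (ratio to TBP). With DESeq2 the SRPIN340 adjusted p was 0.00276 for JUND, 0.0138 for FOSL2 and 0.0299 for ATF3, below the fold limit in each case. The SRPIN340 direction of FOS ranged from -0.059 (without SRPIN340 replicate 1) to 0.52 when single replicates were left out. That of FOSB turned to -0.041 as a ratio to TBP, and ranged from -0.21 (without control replicate 1) to 0.34 when single replicates were left out, with -0.10 without SRPIN340 replicate 1. BATF3 in acidosis against SRPIN340 had an adjusted p of 0.22 as a ratio to TBP, and 0.0867 and 0.108 without SRPIN340 replicates 1 and 2. The cause of these changes was not tested.

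Without the fold limit, calls in acidosis came to 13 for the relatives, 19 for the MAP kinases, 11 for the promoter factors and 5 for the turnover regulators, since smaller changes then count. The share of all genes called without the fold limit was not computed, so these counts do not set any list apart. With total count only, 4 turnover regulators were called. The 2 AP-1 targets called with SRPIN340 became 0 with a replicate block and lay between 0 and 2 when single replicates were left out. Without the length correction, the difference in family share between acidosis and control was 22.2 percentage points for FOS, -46.35 for FOSL2 and -16.55 for JUND, against 28.0, -40.5 and -22.4. With the length of all exons joined, that of FOS was 25.1. The lead of FOS over the other FOS family genes in acidosis was lost in 2 of 3 samples with that length and in all 3 without any.

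Replicate numbers are shared between groups, and same-numbered samples deviated with correlations between -0.17 and 0.0792. In groups of 2, the deviations from the group mean mirror each other. These correlations therefore cannot decide whether same-numbered samples were run together. The replicate block changed no other call of the members except BATF3 against SRPIN340. Depth limits FOS, FOSB, FOSL1 and MAFF in control and BATF3 in acidosis, where few counts stand behind a value, and the groups hold 2 or 3 samples each.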
